A study of Mus musculus with 2 samples.

Results

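The constitutive proteasome genes of mouse skin fibroblasts are described here in cells given IL-17A and in cells given vehicle. Members were the rows of the count table whose symbol begins with Psm, a letter from a to g and a digit. The inducible catalytic subunits Psmb8, Psmb9 and Psmb10 and the inducible activator subunits Psme1 and Psme2 were left out, and at least 50 counts summed over both libraries were required. This gave 43 genes of the 13534 in the table that reached that minimum, called measured genes below. The member with the fewest counts was Psmc3ip, at 255 summed counts, and the 1 matching row under the minimum was the pseudogene Psmb6-ps2 at 14.

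Both cultures were wild-type fibroblasts of the line labelled MDFB, with skin as the tissue, and carried the same batch label. IL-17A is an inflammatory cytokine, and the labels gave neither its dose nor the time of exposure. Each group held 1 library, with 23559416 counts for IL-17A and 24427027 for vehicle, so no difference has a replicate check or a p-value. Ratios are IL-17A over vehicle after scaling library sizes with TMM, a trimmed mean of gene ratios. The 95% interval beside each ratio covers counting error only and leaves out the variation between cultures. It treats reads as independent, which PCR reads are not, so it may be too narrow even for counting error. All 10 genes of a fibroblast marker list were measured, the most abundant being the collagen gene Col1a1 at 348690 counts with IL-17A and 590781 with vehicle. Summed over their lists, keratinocyte markers stood at 3.17 CPM (counts scaled to a common library size) with IL-17A and 2.20 with vehicle. Endothelial markers stood at 4.65 CPM with IL-17A and 3.72 with vehicle. Immune cell markers summed to 263 CPM with IL-17A and 192 with vehicle, most of it the lysozyme gene Lyz2 at 5227 counts with IL-17A and 3836 with vehicle. The immune list was thus the highest of these 3 lists in both libraries. The keratin Krt1 and the T-cell gene Cd3e had no count in either library.

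The proteasome degrades proteins that carry ubiquitin chains. Its barrel-shaped core is built from rings of alpha subunits, which form the gates, around rings of beta subunits, of which Psmb5, Psmb6 and Psmb7 hold the catalytic sites. The regulatory particle caps the core. Its base holds the ATPase ring that unfolds substrates, and its lid holds the deubiquitinase that removes the ubiquitin chain. Dedicated chaperones assist the assembly of the core and of the base and are not part of the finished particle. In cells exposed to interferon, Psmb9, Psmb10 and Psmb8 take the places of Psmb6, Psmb7 and Psmb5 to form the immunoproteasome.

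By role, the 43 members were 14 core subunits, 9 base subunits, 8 lid subunits, 7 assembly chaperones, 3 activators or inhibitors, and 2 genes of another kind. Of these, 1 was Psme2b, a near-identical copy of the inducible activator gene Psme2. The other was Psmc3ip, a meiotic recombination factor that the symbol rule matched and that is not a proteasome subunit. Most of the members stood at nearly the same level in both libraries. A limit was set at a ratio of 5 to 4 in either direction, written 5:4. At least that ratio was found for 3 members higher with IL-17A (of all measured genes 18.3%) and for 0 lower (17.0% of all). The other 40 members, or 93.0%, lay within 5:4, against 64.7% of all measured genes. With a minimum of 200 counts, which every member passed, 69.3% of the remaining genes lay within that limit. These genes were not matched to the members in depth, and counting error is smaller at higher counts. The counting interval lay above 0 for 19 members and below 0 for 3. Of the 13534 measured genes it lay above 0 for 3879 and below 0 for 3583. Only Psmd10 was at least 2-fold higher (5.19% of all measured genes), and 0 members were at least 2-fold lower (3.69% of all). The median log2 ratio was 0.07 over the members, with quartiles of -0.0080 and 0.16, and 0.0015 over all measured genes, with quartiles of -0.20 and 0.22.

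**Figure D1:**
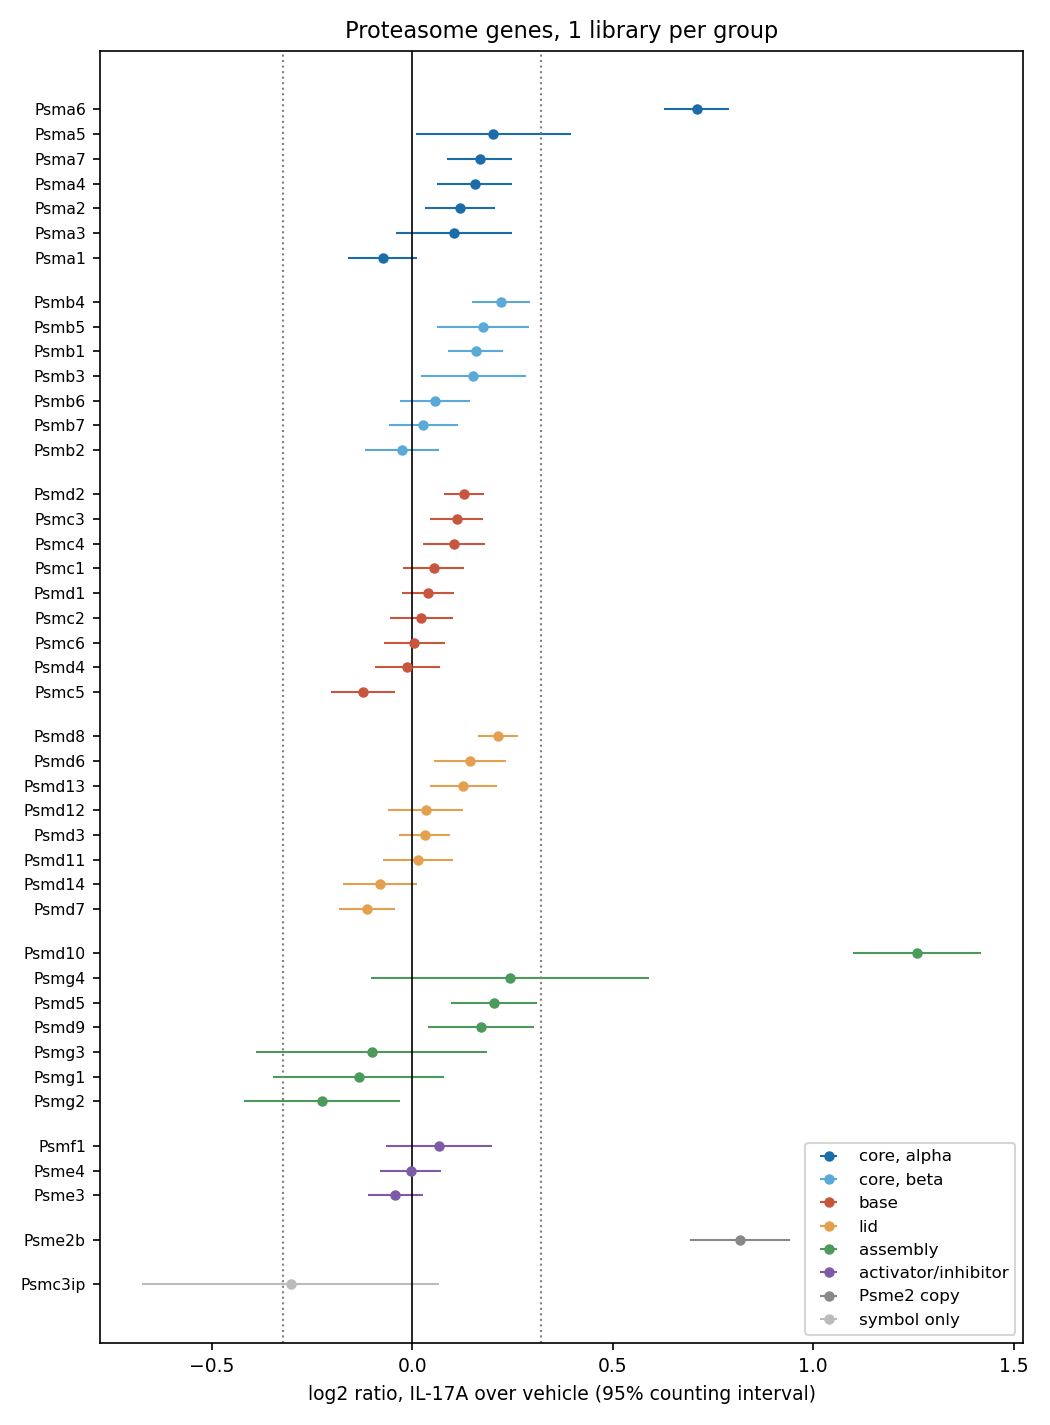
Log2 ratio of IL-17A over vehicle (x axis) for each of the 43 members, grouped and coloured by role, with 1 library per group. Bars are 95% counting intervals and dotted lines mark 5:4. Psma6, Psmd10 and Psme2b stand to the right of the upper line, and the other 40 points lie between the lines.

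**Figure D2:**
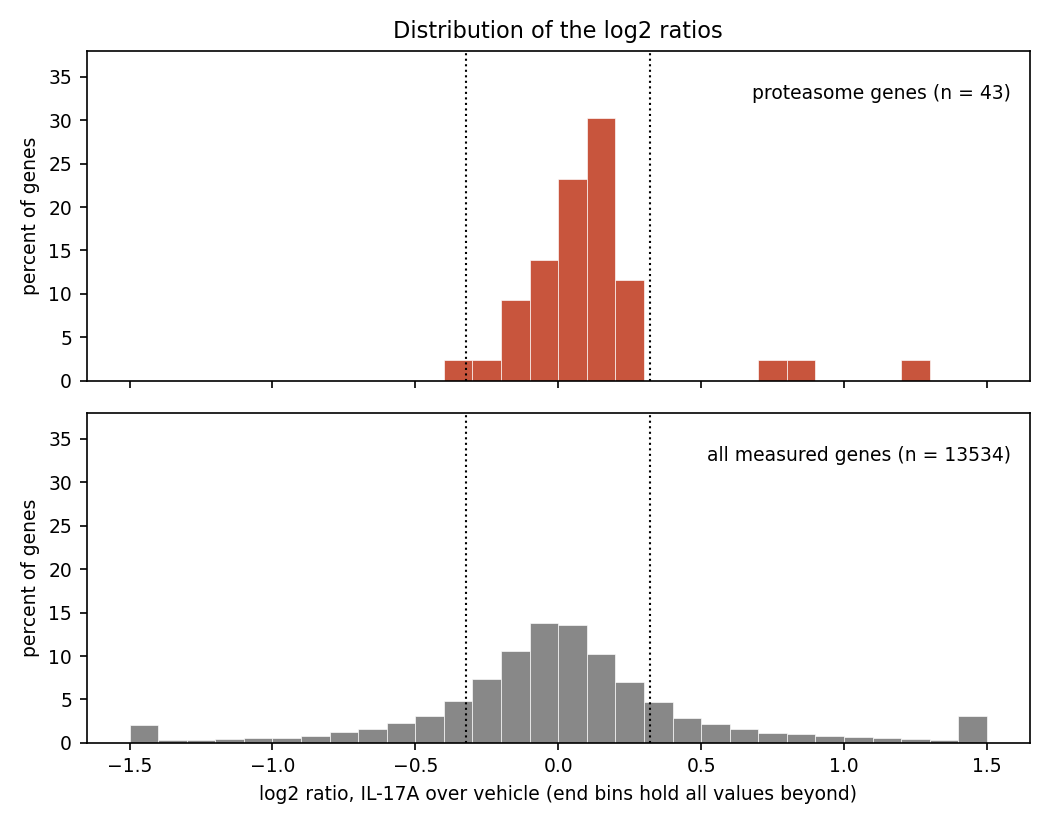
Share of genes (y axis, percent) in each 0.1-wide bin of the log2 ratio of IL-17A over vehicle (x axis), for the 43 members in the upper panel and the 13534 measured genes in the lower one. Dotted lines mark 5:4. The member bins are packed near 0 with 3 genes to the right, while the bins of all genes spread to both ends, which also hold every value beyond the axis.

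Together the members held 94167 counts with IL-17A, or 0.400% of that library, and 95278 with vehicle, or 0.390%. Their summed level was 4092 CPM with IL-17A and 3810 CPM with vehicle, a log2 ratio of 0.10 (95% counting interval 0.09 to 0.12). Of the 43 log2 ratios, 31 were above 0 and 12 below, beside 50.3% above 0 among all measured genes. With total-count scaling, 21 were above 0 and 22 below, beside 40.9% above 0 among all measured genes. The median over the members was then -0.0019 and that of all measured genes -0.07. A change of scaling moves every ratio by the same amount, so neither the order of the members nor their distance from the median of all genes depends on it.

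The promoters of 4 members are given here because the results below turn on these genes: Psma6 and Psmd10 stood apart from the rest, and Psmb5 and Psmb6 are catalytic subunits that did not. Each is the 250 bases upstream of the RefSeq start site, 5′ to 3′ on the gene's strand in GRCm38.p6, which is the mm10 assembly. They lie at chr12:55398575-55398824 on the plus strand for Psma6, at the downstream of its starts, which is nearest to that of the principal GENCODE transcript, chrX:140956712-140956961 on the minus strand for Psmd10, chr14:54617996-54618245 on the minus strand for Psmb5, and chr11:70525107-70525356 on the plus strand for Psmb6. Capitals mark matches, on either strand, to TGACNNNGC, the core of the antioxidant response element read by Nfe2l1 and Nfe2l2, to GGGANNNNCC, a loose form of the NF-kB site, and to CCAAT, the box bound by NF-Y. TGACNNNGC also admits words that hold an AP-1 site, and no match below overlaps one to another word.
Psma6: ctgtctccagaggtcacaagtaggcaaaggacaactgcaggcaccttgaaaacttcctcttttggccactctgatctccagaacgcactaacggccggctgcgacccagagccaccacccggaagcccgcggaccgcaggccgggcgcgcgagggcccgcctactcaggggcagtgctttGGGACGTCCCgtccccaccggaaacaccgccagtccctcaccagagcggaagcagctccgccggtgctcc
Psmd10: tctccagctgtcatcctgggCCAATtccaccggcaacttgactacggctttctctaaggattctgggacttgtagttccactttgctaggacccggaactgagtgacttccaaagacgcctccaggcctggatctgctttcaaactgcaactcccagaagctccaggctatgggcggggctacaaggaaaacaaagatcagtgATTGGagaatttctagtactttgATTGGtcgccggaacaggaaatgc
Psmb5: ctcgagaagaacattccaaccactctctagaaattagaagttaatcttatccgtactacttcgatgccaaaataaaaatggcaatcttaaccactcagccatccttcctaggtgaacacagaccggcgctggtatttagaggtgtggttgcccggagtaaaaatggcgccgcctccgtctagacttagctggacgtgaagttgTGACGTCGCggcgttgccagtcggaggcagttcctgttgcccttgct
Psmb6: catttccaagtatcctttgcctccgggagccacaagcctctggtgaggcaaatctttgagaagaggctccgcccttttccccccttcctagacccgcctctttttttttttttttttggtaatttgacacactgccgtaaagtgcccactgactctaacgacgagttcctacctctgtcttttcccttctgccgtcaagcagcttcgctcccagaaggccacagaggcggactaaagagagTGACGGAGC

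The Psma6 stretch holds the palindrome GGGACGTCCC, 70 to 61 bases upstream of the start, which matches the loose NF-kB form on both strands. Psmd10 has 3 CCAAT boxes and neither of the other words. Psmb5 carries TGACGTCGC at 47 to 39 bases upstream, and Psmb6 carries TGACGGAGC directly before its start. RefSeq promoters were matched for 36 of the 43 members. Psmb1, Psmb2, Psmb7, Psmc3, Psmd3, Psmd7 and Psmg2 had no matched entry. The word TGACNNNGC was found in 5 of the 36 (13.9%), namely Psmb5, Psmb6, Psmc6, Psmd9 and Psmd12, against 11.5% of 27025 genes with a promoter. GGGANNNNCC was found in 10 of the 36 (27.8%) against 19.7% of all, and CCAAT in 13 (36.1%) against 37.5%. A gene was counted when any of its listed starts held the word. Psma6 and Psmc2 were listed with 2 starts each, and Psma6 is among the 13 with CCAAT through its upstream start, which is not shown. None of these words was found in most of the matched members. Those with TGACNNNGC had a median log2 ratio of 0.06 and the 31 without it 0.10. For GGGANNNNCC the medians were 0.07 for the 10 with it and 0.11 for the 26 without, and for CCAAT 0.05 for 13 and 0.13 for 23. The 10 with GGGANNNNCC held Psma6 at 0.71 and Psme2b at 0.82, and also Psmd11 at 0.01 and Psmd12 at 0.03. These matches are descriptions of letters in a window and not of bound sites.

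Among the core subunits, 13 of 14 lay within 5:4, 12 had a log2 ratio above 0, and the median was 0.15. The exception was Psma6, an alpha-ring subunit. It had 3064 counts with IL-17A and 2037 with vehicle, 1.63-fold (95% counting interval 1.55 to 1.73) higher. The other 6 alpha subunits, which sit in the same ring and are present in the same number per particle, had log2 ratios from -0.07 for Psma1 to 0.20 for Psma5, and none of their intervals reached that of Psma6. Psma7, the next most abundant alpha subunit per kilobase of principal transcript with IL-17A, had 2546 counts with IL-17A and 2463 with vehicle. Psma1 had 2064 with IL-17A and 2361 with vehicle, the lowest ratio of the core.

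The beta subunits had a median log2 ratio of 0.15 and a range of -0.02 to 0.22. Psmb4, a structural beta subunit, was the highest, with 3156 counts with IL-17A and 2941 with vehicle, 1.17-fold (95% counting interval 1.11 to 1.23). Psmb5, which carries the chymotrypsin-like site, had 1262 counts with IL-17A and 1213 with vehicle, a log2 ratio of 0.18 (interval 0.06 to 0.29). Psmb6, which carries the caspase-like site, had 2088 with IL-17A and 2180 with vehicle, at 0.06 (interval -0.03 to 0.15). Psmb7, which carries the trypsin-like site, also had 2088 with IL-17A, against 2226 with vehicle, at 0.03 (interval -0.06 to 0.11). All 3 catalytic genes were thus within 5:4, and the intervals of Psmb6 and Psmb7 included 0.

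Of the core, the base and the lid, the base had the narrowest range. Its 9 members had log2 ratios between -0.12 and 0.13, with a median of 0.04, and 0 passed 5:4. The 6 ATPases of the ring, Psmc1 to Psmc6, had a median of 0.04. Psmc3 was the highest of them at 0.11, with 3631 counts with IL-17A and 3654 with vehicle, and Psmc5 the lowest at -0.12 (interval -0.20 to -0.04), with 2365 counts with IL-17A and 2797 with vehicle. All 6 ATPases thus lay within 5:4, and 5 of them were above 0. Psmd2, a large scaffold subunit of the base, had 6750 counts with IL-17A and 6708 with vehicle. Its partner scaffold Psmd1 had 3802 with IL-17A and 4020 with vehicle, and the ubiquitin receptor Psmd4 had 2332 with IL-17A and 2556 with vehicle. The scaffolds and the receptor thus lay within 5:4 as well.

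The 8 lid subunits also lay within 5:4, with a median of 0.03 and a range of -0.11 to 0.21. Psmd14, the deubiquitinase of the lid, had 1780 counts with IL-17A and 2044 with vehicle, at -0.08 (interval -0.17 to 0.01). Psmd7, which pairs with it, was at -0.11 (interval -0.18 to -0.04), with 3062 counts with IL-17A and 3599 with vehicle. These were the 2 lid members below 0. Psmd8 was the highest lid member, with 6944 counts with IL-17A and 6507 with vehicle, 1.16-fold (interval 1.12 to 1.20). Psmd6 and Psmd13 stood at 0.15 and 0.13, and Psmd3, Psmd11 and Psmd12 between 0.01 and 0.03.

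Compared class with class, the core median of 0.15 was above those of the base, 0.04, and the lid, 0.03, while the ranges of the classes overlapped. Summed counts gave log2 ratios of 0.16 (95% counting interval 0.14 to 0.19) for the core, 0.05 (0.03 to 0.08) for the base and 0.07 (0.04 to 0.10) for the lid. Psma6 made up a part of this gap. Without it the core sum stood at 0.11 (interval 0.08 to 0.13), which overlapped the lid's interval but not the base's, and the core median stayed at 0.15. With 1 library per group the difference between classes was not tested.

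The assembly chaperones were the class with the widest spread, from -0.22 to 1.26, and their median was 0.17. Psmd10, also called gankyrin, is a base chaperone and was the member with the highest ratio. It had 1019 counts with IL-17A and 463 with vehicle, 2.39-fold (95% counting interval 2.14 to 2.68) higher. Psmd5 and Psmd9, the other two base chaperones, had log2 ratios of 0.20 (interval 0.10 to 0.31) and 0.17 (interval 0.04 to 0.30). Psmd5 had 1469 counts with IL-17A and 1386 with vehicle, and Psmd9 had 954 with IL-17A and 920 with vehicle. The base chaperones thus stood apart among themselves, since Psmd10 was far above both.

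The core chaperones Psmg1, Psmg2, Psmg3 and Psmg4 went the other way in 3 of 4 cases. Psmg1 and Psmg2, which form a pair, were at -0.13 (interval -0.35 to 0.08) and -0.22 (interval -0.42 to -0.03). Psmg1 had 338 counts with IL-17A and 403 with vehicle, and Psmg2 had 389 with IL-17A and 494 with vehicle. Both log2 ratios of this pair were below 0. Psmg3 was at -0.10 with 188 counts with IL-17A and 219 with vehicle, whereas its partner Psmg4 was at 0.24 (interval -0.10 to 0.59) with 147 with IL-17A and 135 with vehicle. All 4 lay within 5:4, and only the interval of Psmg2 left out 0. Summed, they held 1062 counts with IL-17A and 1251 with vehicle, a log2 ratio of -0.12 (interval -0.24 to 0.0030). A difference of the sum was not detectable at this depth. Pomp, the maturation factor of the core and not matched by the symbol rule, had 1394 counts with IL-17A and 1299 with vehicle, at 0.22 (interval 0.11 to 0.33).

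The activators and the inhibitor had log2 ratios close to 0. Psme3, which forms the nuclear activator ring, had 3174 counts with IL-17A and 3551 with vehicle, at -0.04 (interval -0.11 to 0.03). Psme4, a large single-chain activator, had 2709 with IL-17A and 2952 with vehicle, at -0.0038 (interval -0.08 to 0.07). Psmf1, which inhibits the core in vitro, had 916 with IL-17A and 951 with vehicle, at 0.07 (interval -0.07 to 0.20). Psmc3ip had 109 counts with IL-17A and 146 with vehicle, at -0.30 (interval -0.67 to 0.07).

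Psme2b had 1357 counts with IL-17A and 837 with vehicle, 1.76-fold (95% counting interval 1.62 to 1.92) higher. Psme2 itself had 370 with IL-17A and 229 with vehicle, also 1.76-fold (interval 1.49 to 2.08). The transcripts are 99.4% identical over 794 bases, so reads may be split between the rows and neither value is certain on its own. Of the 43 members, 7 shared a stretch of at least 200 bases at 97% identity or more with an annotated gene elsewhere. They were Psma3, Psma5, Psmb3, Psmb5, Psmc1, Psmd11 and Psme2b, and their counts are uncertain for this reason. Psma6 and Psmd10 had no such copy. An annotated GENCODE gene on the opposite strand overlapped 15 members, and the strand setting of the counting is not stated.

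Levels per length showed how the subunits stood against each other within a library. Values are CPM per kilobase of the principal GENCODE transcript, and transcripts in use may be shorter or longer. The core median was 76.5 with IL-17A and 77.4 with vehicle. The base median was 76.1 with IL-17A and 76.4 with vehicle, and the lid median 57.4 with IL-17A and 55.3 with vehicle. Assembly chaperones were lower, with a median of 14.5 with IL-17A and 12.9 with vehicle. By exon union the core median was below that of the base, at 33.9 against 54.6 with IL-17A and 31.3 against 50.9 with vehicle, so the order of core and base depended on the length. Per kilobase of principal transcript, Psmd8 was the highest of all members in both libraries, at 196 with IL-17A and 169 with vehicle. Psma6 stood at 128 with IL-17A and 78.2 with vehicle, rank 2 of the 43 with IL-17A and rank 13 with vehicle. When the length was instead the union of all annotated exons, Psma6 stood at 107.9 with IL-17A and 66.0 with vehicle, rank 1 with IL-17A and rank 5 with vehicle, so the step in rank depended on the length. By that length Psmd8 stood at 98.7 with IL-17A and 85.1 with vehicle, below Psma6 with IL-17A. Per kilobase of principal transcript again, Psmd10 stood at 31.0 with IL-17A and 12.9 with vehicle, which placed it first among the assembly chaperones with IL-17A. Psma3 and Psma5, both with pseudogene copies, were the lowest core genes. Psma3 stood at 12.0 with IL-17A and 11.2 with vehicle, and Psma5 at 15.9 with IL-17A and 13.8 with vehicle.

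**Figure D3:**
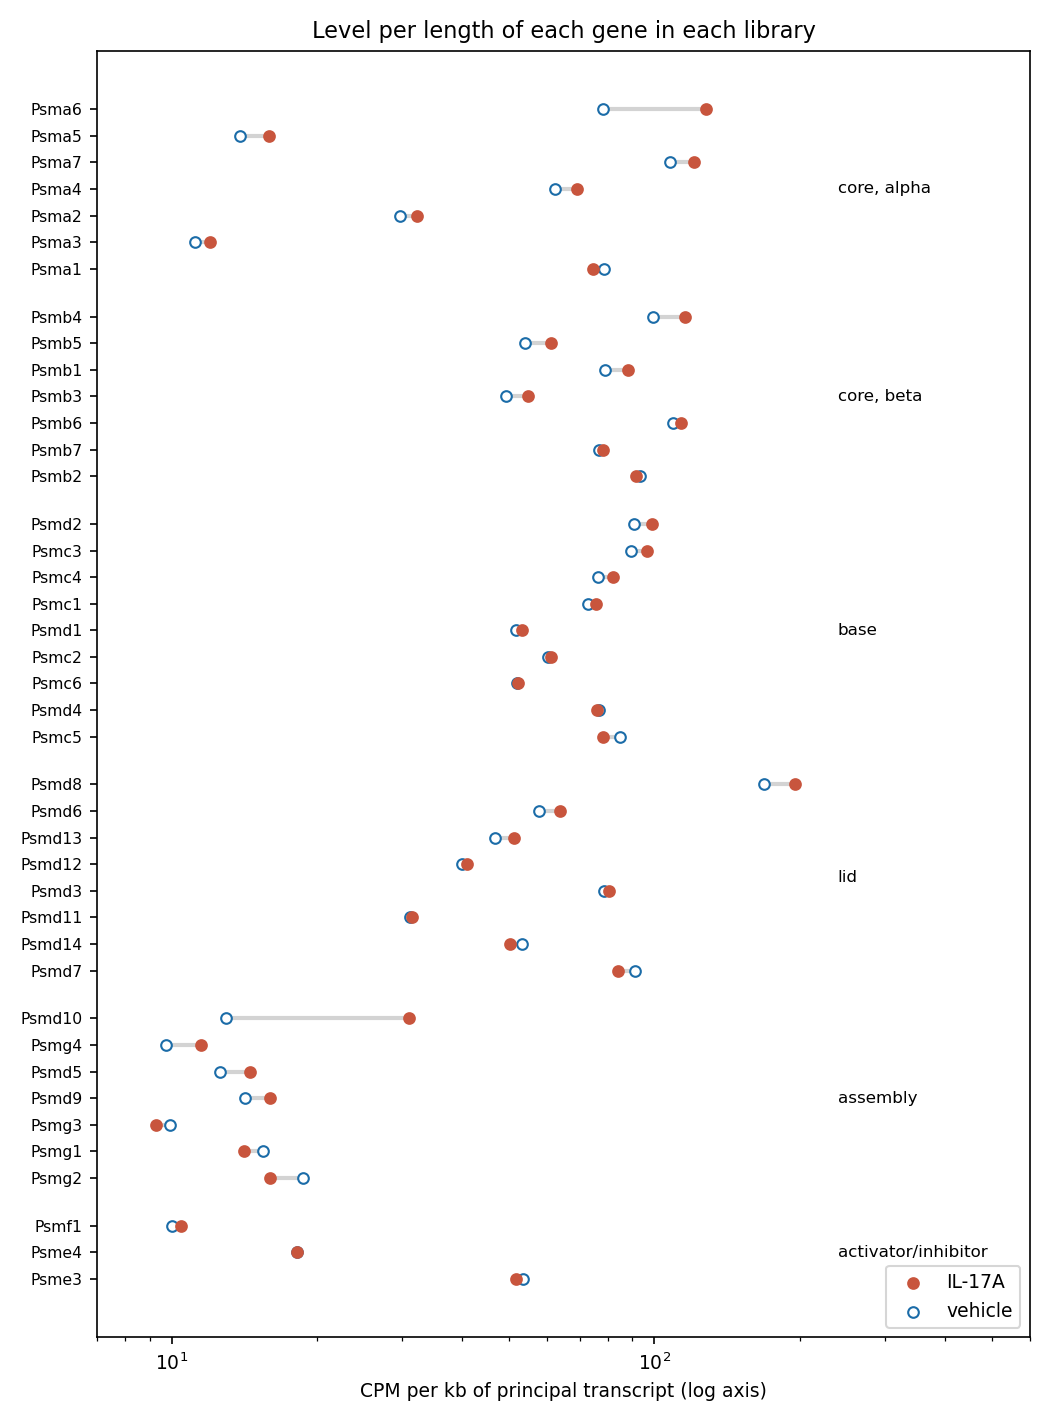
Level of the core, base, lid, assembly and activator or inhibitor genes in each library (x axis, CPM per kb of principal transcript, log axis). Filled points are IL-17A and open points vehicle, 1 library each, joined by a grey line. The points of most genes nearly touch, while those of Psma6 (128 with IL-17A, 78.2 with vehicle) and Psmd10 (31.0 with IL-17A, 12.9 with vehicle) are wide apart.

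The inducible genes that the rule left out differed more. All 5 were higher than 5:4 with IL-17A, against 18.3% of all measured genes, with a median log2 ratio of 0.90. Psmb10 had 757 counts with IL-17A and 317 with vehicle, 2.60-fold (95% counting interval 2.27 to 2.97) higher. Psmb9 had 106 with IL-17A and 57 with vehicle, 2.02-fold (interval 1.45 to 2.84). Psmb8 had 768 with IL-17A and 446 with vehicle, 1.87-fold (interval 1.66 to 2.11). Psme1 had 1736 counts with IL-17A and 1134 with vehicle, 1.66-fold (interval 1.54 to 1.79). The intervals of Psmb10, Psmb9 and Psmb8 did not overlap those of the constitutive genes whose places they take.

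As a share of the counts of both genes of a pair, Psmb10 with Psmb7 stood at 26.6% (exact 95% interval 24.99 to 28.3) with IL-17A and 12.5% (11.2 to 13.8) with vehicle. Psmb8 with Psmb5 stood at 37.8% (35.7 to 40.0) with IL-17A and 26.9% (24.8 to 29.1) with vehicle. Psmb9 with Psmb6 stood at 4.83% (3.97 to 5.81) with IL-17A and 2.55% (1.94 to 3.29) with vehicle. Over all 3 pairs the inducible share was 23.1% (22.1 to 24.1) with IL-17A and 12.7% (11.9 to 13.6) with vehicle. Per kilobase of principal transcript this was 16.2% with IL-17A and 8.51% with vehicle. The share was higher with IL-17A in each pair by counts and by either length, and library scaling does not enter it. In bulk RNA, fewer cells of a type and less RNA per cell cannot be told apart, and immune cells also express these genes. Of 8 listed immune markers, 6 were in the table and 5 measured, with Cd3e at 0. They summed to 263 CPM with IL-17A and 192 with vehicle. Lyz2 alone carried this difference. Without it, an alternative chosen after seeing the data, the sum was 36.0 CPM with IL-17A and 38.3 with vehicle. The macrophage gene Cd68, likewise chosen, had 168 counts with IL-17A and 270 with vehicle, a log2 ratio of -0.56. The other measured markers did not follow Cd68. Ptprc stood at 0.14, Csf1r at 0.10 and Adgre1 at -0.07, and each of their intervals included 0. The part of immune cells in the shares was not tested.

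**Figure D4:**
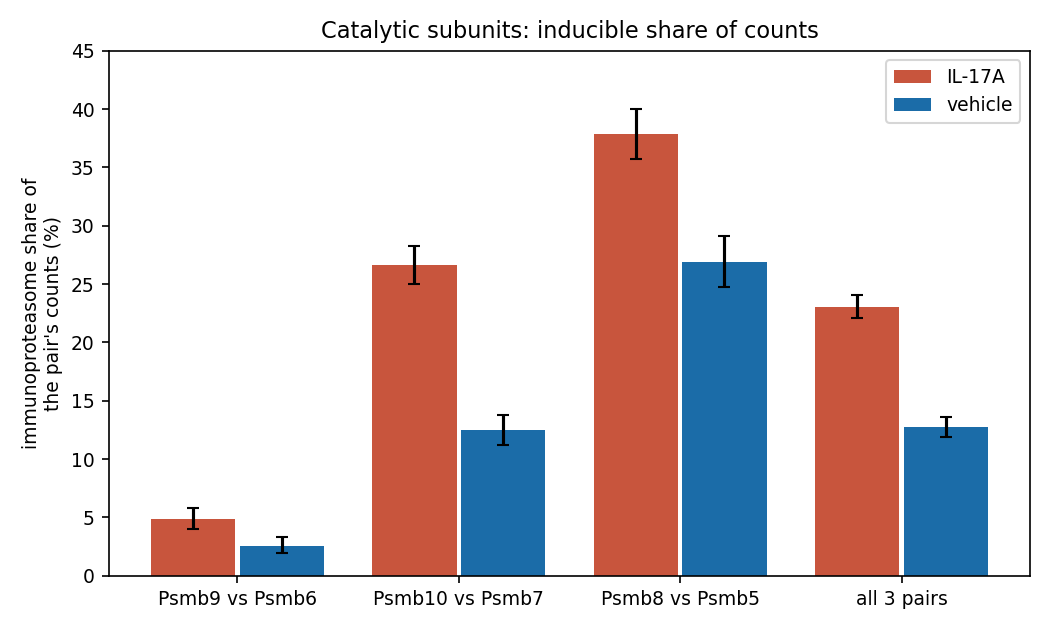
Inducible share of the counts of each catalytic pair (y axis, percent) in the IL-17A library (left bar of each pair) and the vehicle library (right bar), with exact 95% binomial intervals that cover counting error only. Each IL-17A bar is higher than its vehicle bar, at 23.1% with IL-17A and 12.7% with vehicle over all 3 pairs.

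Genes outside the symbol rule that belong to or work with the constitutive particle mostly had ratios near 0. The ubiquitin receptor Adrm1 had 680 counts with IL-17A and 750 with vehicle, at -0.02, and the small lid subunit Sem1 had 1378 with IL-17A and 1423 with vehicle, at 0.07. Of 17 measured proteasome-linked genes, which also held ubiquitin shuttle factors and associated deubiquitinases, 0 passed 5:4 in either direction. Of all measured genes, 18.3% were higher past it and 17.0% lower. The median of the 17 was -0.01. With total-count or upper-quartile scaling, 2 of them, Usp14 and Uchl5, were lower past 5:4. The highest was Zfand5, a zinc-finger protein that binds the proteasome, at 0.29 (interval 0.21 to 0.37). Uchl5, Zfand5 and the deubiquitinase Usp14 were chosen after their values were seen. Usp14 was the lowest at -0.30 (interval -0.39 to -0.21), with 1794 counts with IL-17A and 2405 with vehicle. The COP9 signalosome and the translation factor eIF3 are complexes with subunits related to those of the lid. All 9 measured genes of the signalosome and all 14 of eIF3 lay within 5:4 with TMM scaling, against 64.7% of all measured genes, with medians of -0.08 and -0.02. With total-count scaling 2 genes of eIF3, Eif3c and Eif3j1 (also chosen so), were lower past 5:4.

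Transcription factors known to drive proteasome genes when proteasome activity falls are listed here with their partners and processing factors. Nfe2l1, the main such factor, had 15560 counts with IL-17A and 13995 with vehicle, 1.21-fold (95% counting interval 1.18 to 1.24). Nfe2l2, the oxidative stress regulator, had 3594 with IL-17A and 2266 with vehicle, 1.72-fold (interval 1.64 to 1.82). The small Maf proteins are their DNA-binding partners. Maff had 1895 counts with IL-17A and 697 with vehicle, 2.95-fold (interval 2.71 to 3.23), and Mafg was 1.55-fold higher with 3275 with IL-17A and 2293 with vehicle. Mafk, also a small Maf and named after its value was seen, lay within 5:4. It had 1079 counts with IL-17A and 1039 with vehicle, 1.13-fold (interval 1.04 to 1.23). In this list of 13 genes, 3 were higher past 5:4, against 18.3% of all measured genes, and 0 were lower, against 17.0%. Of the 13, 9 were above 0 and 4 below, and the interval left out 0 for 8 of those above and 2 of those below. Among those below 0, chosen after their values were seen, Vcp, the ATPase that extracts proteins from membranes, was at -0.16 (interval -0.22 to -0.09) and Sel1l, of the same degradation pathway, at -0.13 (interval -0.18 to -0.08). Others of the list, chosen likewise, went the other way. Nploc4 was at 0.24 (interval 0.17 to 0.32), Ufd1 at 0.14 (interval 0.03 to 0.25) and Ddi2 at 0.13 (interval 0.04 to 0.22). Among 6 ubiquitin and ubiquitin-activating genes, 1 was higher past 5:4, against 18.3% of all measured genes. This was the polyubiquitin gene Ubb at 10705 counts with IL-17A and 8800 with vehicle, 1.32-fold (interval 1.29 to 1.36).

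Some proteasome genes lie beside genes with high ratios, and the positions below were read from the RefSeq annotation of GRCm38.p6. The neighbours named were chosen after their values were seen. Psma6 lies on chromosome 12 at 55384222 to 55418459. Its promoter printed above lies inside this span and not at an end of it. Nfkbia, which encodes the NF-kB inhibitor IkB-alpha, lies 70.95 kb downstream and had 7013 counts with IL-17A and 1256 with vehicle, 6.07-fold higher. Prorp, on the other side and 1.73 kb from the end of the Psma6 span, had 220 counts with IL-17A and 238 with vehicle, at a log2 ratio of 0.0067. Ppp2r3c and Srp54c, farther along that side, stood at 0.24 and 0.10.

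Of the 11 members whose nearest measured gene was higher past 5:4, 9 lay within 5:4, and Psmd10 and Psme2b were past it. The nearest gene was lower past 5:4 for 8 members, all within 5:4, and within 5:4 for the other 24, of which Psma6 was past it. Over all measured genes, 18.3% were higher past 5:4, 17.0% were lower past it and 64.7% lay within it. Psmd3 lies 4.21 kb from Csf3, which encodes the growth factor for granulocytes and had 1553 counts with IL-17A and 25 with vehicle, a log2 ratio of 6.08. Psmd3 itself stood at 0.03. Psmd12 at 0.03 and Psmd11 at 0.01 lie 8.81 kb from Pitpnc1 and 3.77 kb from Cdk5r1, at 1.44 and 1.23. Psmd10 lies on chromosome X at 140948425 to 140956711, where the RefSeq span of the autophagy protease gene Atg4a overlaps it. In GENCODE, no gene on the opposite strand overlapped Psmd10. Atg4a had 311 counts with IL-17A and 218 with vehicle, at 0.63 (interval 0.38 to 0.89), below the 1.26 of Psmd10. Without a stated strand setting, reads of overlapping genes could fall to either. Psme2b had Irgm1 as its nearest measured gene, 73.9 kb away and at 0.61.

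**Figure D5:**
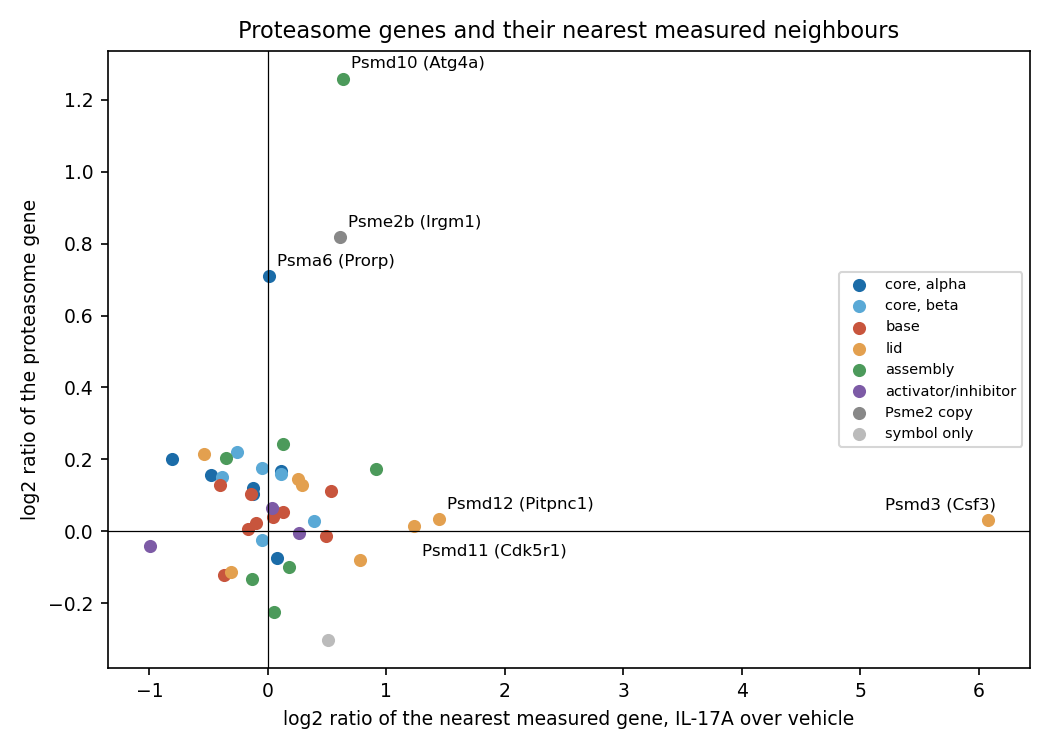
Log2 ratio of IL-17A over vehicle of each of the 43 members (y axis) against that of its nearest measured gene on the chromosome (x axis), coloured by role, with the neighbour's name in brackets for 6 members. Psmd3, beside Csf3 at 6.08, lies at 0.03, while Psma6 stands at 0.71 beside Prorp at 0.0067.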

How the data were processed

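RNA was extracted with a PureLink kit and sequenced from Illumina stranded mRNA libraries, per the labels' protocols. The authors deposited 1 table of raw counts, whole numbers per gene symbol that they had not normalized, with a column for each library. STAR, featureCounts and the build mm10 are named in the submitters' processing notes, without versions, annotation or strand setting. Samples were grouped by the treatment label. TMM scaling was done in edgeR 4.0.16 (R 4.3.3), DESeq2 1.42.0 serving only for alternative size factors. With 1 library per group no test was possible. Ratios were taken for genes with at least 50 summed counts, with exact 95% Clopper-Pearson intervals of the IL-17A share (scipy 1.17.1). The calculation was tested on simulated counts that held counting error only. That test cannot show how the intervals fare with PCR reads or with variation between cultures. Limits of 5:4 and 2-fold are rules of size. Lengths came from GENCODE M21, promoters and neighbours from RefSeq, and near-identical copies from BLAST 2.17.0. All 43 members matched both annotations. Every member could be named, with genes of other lists past 5:4 (at most 6 a list), the most abundant marker of each marker list and Adrm1, Sem1, Pomp, Nfe2l1 and Nfe2l2 always. The members and lists were chosen with earlier results of these data known. The role of Psme2b was assigned after the files were read.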

Additional observations from a re-analysis of the deposited data

How the results depend on the processing

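No paired analysis was possible because each group held 1 library, and no library could be left out. Total-count scaling moved every log2 ratio by -0.07, upper-quartile scaling by -0.04 and DESeq2 size factors by -0.0018, and the median of all measured genes moved with them. With total-count scaling the medians were -0.0019 over all members, 0.086 for the core, -0.028 for the base, -0.036 for the lid, 0.10 for assembly and -0.072 for activators and inhibitor. With upper-quartile scaling they were 0.027, 0.11, 0.00088 and -0.0068 for all members, core, base and lid. Under both, Psmc3ip passed the limit, which gave 1 member lower past 5:4. The count of higher members was 3 under each scaling, with a prior count of 2 and with a minimum of 200 counts, 4 with a minimum of 10, and 2 without Psme2b or without the members with copies elsewhere. Without Psmc3ip, as with a minimum of 10 counts, which adds Psmb6-ps2, the median over all members was 0.085, and without the 7 members with copies elsewhere, an alternative chosen after seeing the data, 0.049. A limit of 1.1-fold gave 15 members higher and 2 lower, and one of 3-fold gave 0 higher. Per kilobase of principal transcript, the inducible share was 24.3% with IL-17A and 11.2% with vehicle for Psmb10, 25.2% with IL-17A and 16.9% with vehicle for Psmb8, 2.91% with IL-17A and 1.52% with vehicle for Psmb9, and 16.2% with IL-17A and 8.51% with vehicle over all pairs. Per kilobase of exon union, also chosen after seeing the data, it was 42.1% with IL-17A and 22.2% with vehicle for Psmb10, 13.9% with IL-17A and 8.91% with vehicle for Psmb8, 2.53% with IL-17A and 1.32% with vehicle for Psmb9, and 18.3% with IL-17A and 9.53% with vehicle over all. The order of Psmb8 and Psmb10 therefore depended on the length used.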
